A study of Mus musculus with 12 samples.

Results

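The enzymes of cholesterol and fatty acid synthesis, together with the sterol regulatory element-binding protein (SREBP) system that controls them, were followed as 36 genes among the 32301 gene names on the array. A gene was included when it was on a list of these enzymes and regulators and a probe carried one of its transcript accessions. The 36 genes had 60 probes, and 19 of them had more than 1. By role, 7 genes belong to the mevalonate pathway, 11 to the sterol branch, 6 to the SREBP system, 6 to fatty acid synthesis, and 6 to fatty acid elongation and desaturation.

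Cholesterol is built from acetyl-CoA through mevalonate and farnesyl diphosphate, which is joined to squalene, closed to lanosterol and then trimmed to cholesterol in the endoplasmic reticulum. Fatty acids are built from the same acetyl-CoA through malonyl-CoA and are afterwards lengthened and desaturated. The SREBP transcription factors wait in the endoplasmic reticulum membrane bound to Scap, are held there by the Insig proteins while sterol is plentiful, and otherwise travel to the Golgi apparatus, are cleaved and switch on the genes of both pathways, and in fat cells the fatty acids made this way supply stored triglyceride.

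RNA came from 3T3-L1, a mouse embryonic fibroblast line of preadipocytes that turns into adipocytes in culture. Confluent cells without hormones, grown with 10% newborn bovine serum, formed the 0 h groups, and cells kept for 6 h in a differentiation mixture of insulin (5 µg/ml), dexamethasone (1 µM) and isobutylmethylxanthine (0.5 mM) with 10% fetal bovine serum formed the 6 h groups. Hormones, medium change and kind of serum therefore differ together between the times and cannot be told apart. Lysates were run on sucrose gradients in the presence of cycloheximide, and fractions 5 to 7 were pooled as non-polysomal and fractions 9 to 11 as polysomal RNA, with 3 biological replicates in each of the 4 groups and 1 array per pool. All groups come from this single line, and in such bulk pools fewer cells that use a gene and less of its RNA per cell cannot be told apart.

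On each array 55.7% to 60.8% of the probes were rated well above background, and saturation was seen for 0 spots. The brightest probe of every one of the 36 genes was well above background on all 12 arrays, so none of the values of these probes rests on a signal near background. Of the markers of the cell type, 6 of 6 fibroblast or preadipocyte genes were well above background on all 12 arrays, as were 5 of 6 adipocyte genes, whereas 0 of 3 epithelial, 0 of 3 endothelial and 1 of 3 leukocyte markers were. The leukocyte marker was Csf1r, with mean log2 signals of 5.62 and 6.66 in the non-polysomal and 4.86 and 6.64 in the polysomal pool at 0 h and 6 h, and it was called higher at 6 h in both pools. The endothelial marker Cdh5 was well above background on all 3 polysomal arrays at 6 h, at a mean of 4.67. The part of such markers in the results was not tested. The arrays were scaled by spike-ins, foreign RNAs added before amplification, whose log2 signal before scaling was lower in the 6 h polysomal group (mean offset -0.35 ± 0.13, SD, n = 3) than in the other groups (0.10 to 0.14). The 10 spike-ins did not move alike. The dimmer 5 of them, with mean log2 signals of 7.82 to 16.8, lay 0.76 to 0.91 lower on the 6 h polysomal arrays than on the others, and the brighter 5, at 18.29 to 19.07, 0.02 to 0.28 lower. Which of them the arrays are scaled by therefore moves every 6 h polysomal signal. Counts of the 36 genes that depend on it are also given with each of these 5 alone, an alternative chosen after seeing the data. With all 10 the median over all genes was 0.54 for the polysomal change, 0.04 for the non-polysomal change and 0.08 for the difference between fractions at 0 h, all on the log2 scale, against 0.05, -0.03 and -0.81 when each array was scaled to its 75th percentile, and the 36 genes are therefore also given relative to these medians.

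Promoter windows of 300 bases, from 250 before to 50 after the annotated start, were at hand for 29 of the 36 genes from RefSeq (build GRCm38.p6). They were searched on both strands for the motif of SREBP (TCACNCCAC), the CCAAT box of the factor NF-Y, the GC box of Sp1 (GGGCGG) and the E-box (CACGTG). The CCAAT box was present in 24 of 29 (82.8%) against 41.1% of the 27025 genes with a window, the GC box in 23 (79.3%) against 38.2%, the E-box in 6 (20.7%) against 8.09%, and the SREBP motif in 1 (3.45%) against 1.44%. These are letter matches and no measurement of binding. No window was found for Fdps, Fdft1, Sqle, Stard4, Scd1, Scd2 and Fads1.

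The only SREBP match lay 137 bases before the start of Hmgcs1, the gene of the synthase that makes HMG-CoA, and it is shown in capitals with the bases around it.
Hmgcs1 (chr13:119690204-119690233, plus strand): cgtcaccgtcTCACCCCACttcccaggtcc

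Among the genes that changed in the non-polysomal fraction, described further on, CCAAT stood in 7 of 7 windows of genes that fell and in 3 of 3 of genes that rose, so the box was shared by both directions, and the GC box stood in 6 of 7 and 0 of 3. In the windows of genes not called there, the GC box stood in 17 of 19 and CCAAT in 14 of 19. For 4 genes that fell and for the 3 that rose, 30 bases on the strand of the gene are shown around the box nearest the start among those whose stretch ends before it, with the box in capitals, read on either strand. Nsdhl and Elovl5 also had boxes nearer to the start than the one shown.
Mvd (chr8:122443432-122443461, minus strand, fell): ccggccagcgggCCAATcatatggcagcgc
Nsdhl (chrX:72918489-72918518, plus strand, fell): aagactagcctcATTGGgcaaaatcatgct
Msmo1 (chr8:64733616-64733645, minus strand, fell): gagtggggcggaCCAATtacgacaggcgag
Srebf2 (chr15:82147122-82147151, plus strand, fell): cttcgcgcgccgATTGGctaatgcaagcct
Pmvk (chr3:89454393-89454422, plus strand, rose): aactcaggttggCCAATtcacagcatctag
Elovl5 (chr9:77917282-77917311, plus strand, rose): tatcgccccaggATTGGttccaaggccgca
Fasn (chr11:120824589-120824618, minus strand, rose): cctcggtgtccaATTGGtttcgatgtggag

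The first comparison asked how the signals of the messages differed between the pools before induction. Per the paper, the spike-in amount was set by the amount of RNA, and the fraction between the pools was not used. The differences are therefore no measure of the share of a message on polysomes. In resting cells nearly the whole lipid synthesis set had more signal in the polysomal than in the non-polysomal pool. A gene was called when its limma adjusted p was below 0.05 and its log2 difference was above 1 or below -1. By this rule 31 of 36 genes (86.1%) were higher in the polysomal pool, against 24% of all genes and 40.2% of the genes with a probe that was not dim, and 0 were lower, against 10.7% of all genes. The median log2 difference was 1.88, which is 1.80 above the median of all genes, and within the 3 slides, each of which carried 1 replicate of every group, it lay 1.56, 1.79 and 2.00 above it. With each array scaled to its 75th percentile 18 genes were higher and 2 lower. Such scaling shifts all genes of an array alike, so the distance to the median of all genes, again 1.80, could not move. After quantile normalization, which can move it, the distance was 1.23.

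With spike-in scaling 7 of 7 genes of the mevalonate pathway and 11 of 11 of the sterol branch were called higher, with medians of 1.90 and 2.01. The counts were 4 and 7 with 75th percentile scaling, and 4 and 8 after quantile normalization. Hmgcs1 had log2 signals of 11.57, 11.64 and 11.61 in the non-polysomal and of 14.07, 14.38 and 14.19 in the polysomal pool at 0 h. All 3 polysomal arrays lay above all 3 non-polysomal ones, and the log2 difference was 2.61 ± 0.09 (SE, limma adjusted p = 2.86e-09). Fdft1, the squalene synthase gene at the entry to the sterol branch, differed by 2.61 ± 0.07 (adjusted p = 1.46e-09), or 6.12-fold. Tm7sf2, which encodes a sterol reductase, had the smallest difference of that branch at 1.23 ± 0.10.

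In fatty acid synthesis 5 of 6 genes were higher in the polysomal pool with spike-in scaling, and in elongation and desaturation 5 of 6. With 75th percentile scaling, and likewise after quantile normalization, the counts were 4 and 2. Acly, the gene of ATP-citrate lyase, which makes cytosolic acetyl-CoA, had the largest difference of all 36 genes under spike-in scaling. Its log2 signals at 0 h were 7.29, 7.34 and 7.22 in the non-polysomal and 9.99, 10.20 and 10.10 in the polysomal pool, which is a log2 difference of 2.81 ± 0.08 (adjusted p = 1.61e-09), or 7.03-fold. Me1, the malic enzyme gene that provides NADPH, did not reach the limit with spike-in scaling, at 0.93 ± 0.08. Neither did Scd1, a stearoyl-CoA desaturase gene. Scd1 had log2 signals of 10.97, 11.06 and 10.89 in the non-polysomal and 11.06, 11.12 and 11.22 in the polysomal pool, so that its groups overlapped, with a difference of 0.16 (95% interval -0.01 to 0.33). Its paralog Scd2 differed by 2.15 ± 0.08, and how far the probes of such close paralogs read each other was not tested.

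The SREBP system was divided at rest, and 3 of its 6 genes were called higher with spike-in scaling. With 75th percentile scaling, and likewise after quantile normalization, 1 was called higher, Srebf1. Srebf1 and Srebf2, the genes of the transcription factors, were higher in the polysomal pool by 2.52 ± 0.08 and 1.71 ± 0.08, and Stard4, the gene of a sterol carrier, by 1.11 ± 0.09. Scap, the escort protein gene, differed by 0.58 ± 0.09. The Insig genes, whose products retain the SREBP-Scap complex, had differences of -0.28 ± 0.15 (Insig1) and -0.63 ± 0.09 (Insig2), the only negative ones of the 36 with spike-in scaling, while with 75th percentile scaling Scap (-0.31) and Scd1 (-0.72) were negative as well and both Insig genes were called lower, at -1.16 and -1.52. Insig1 overlapped between the pools, while all 3 polysomal arrays of Insig2 (10.22, 10.50 and 10.38) lay below the non-polysomal ones (11.02, 11.03 and 10.94). The second probes of Insig1 and Insig2 gave -0.05 and -0.67.

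**Figure D1:**
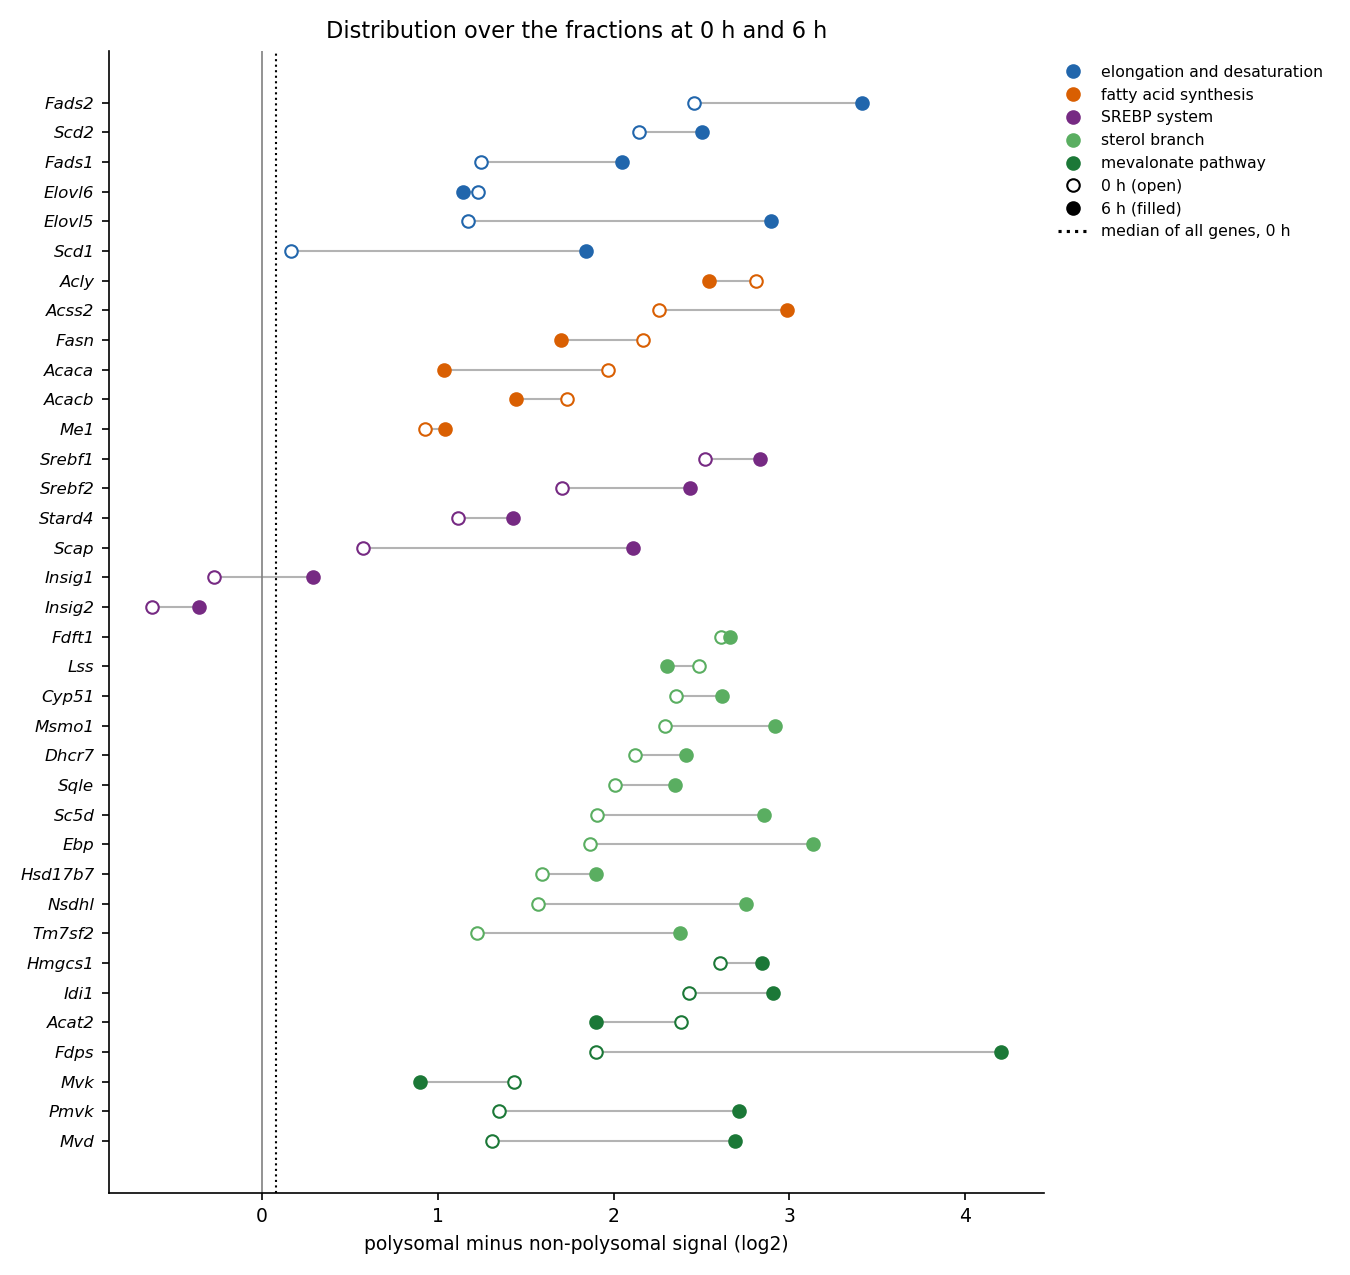
Polysomal minus non-polysomal log2 signal of each of the 36 genes at 0 h (open circles) and 6 h (filled circles), coloured by role, from the means of 3 arrays a group, with the median of all genes at 0 h as a dotted line. With spike-in scaling 34 of the 36 genes lie above 0 at 0 h and the Insig genes below it, and Fdps at 6 h, at 4.20, is the point farthest to the right.

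The second comparison asked what changed over the 6 h in each fraction. Most of the 36 genes lay below the median of all genes in both pools, while a few rose strongly in the polysomal pool. In the polysomal pool 5 genes rose, Pmvk, Elovl5, Scd1, Scap and Fasn, and 4 fell, Acacb, Fdft1, Mvk and Acat2. These are 13.9% of the 36 genes against 18.5% of all genes for a rise, and 11.1% against 4.47% for a fall. Among the genes that were not dim, 27% rose and 7.38% fell. The median of the 36 genes was -0.38 on the log2 scale, and its distance from the median of all genes was -0.92, with a range of -1.04 to -0.71 within the 3 slides. Of the 36 genes, 7 lay above the median of all genes. The distance between the medians was -1.03 after quantile normalization. With 75th percentile scaling it was again -0.92, since a shift common to all genes of an array cannot move it. With 75th percentile scaling the split was 3 higher and 16 lower in place of 5 and 4, with the dimmer spike-ins 7 and 1, and with the brighter ones 3 and 13. Pmvk, Elovl5, Scd1 and Acacb were called in the same direction under all of these scalings and after quantile normalization.

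Pmvk, the gene of phosphomevalonate kinase in the middle of the mevalonate pathway, changed most. Its log2 signals in the polysomal pool were 12.97, 13.16 and 13.18 at 0 h and 17.22, 17.20 and 17.32 at 6 h. In the non-polysomal pool they were 11.73, 11.80 and 11.73 at 0 h and 14.63, 14.50 and 14.47 at 6 h. The times did not overlap in either pool, and Pmvk rose by 4.14 ± 0.08 on the log2 scale (17.7-fold, limma adjusted p = 4.08e-10) in the polysomal and by 2.77 ± 0.08 (6.84-fold, adjusted p = 7.38e-09) in the non-polysomal pool. Its second probe gave 4.08 and 2.78. With 75th percentile scaling its polysomal change was 3.66, and 3.41 after quantile normalization.

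The other genes that rose act on fatty acids, apart from Scap. Elovl5, the gene of an elongase of polyunsaturated fatty acids, had polysomal log2 signals of 11.56, 11.82 and 11.75 at 0 h and of 14.59, 14.42 and 14.54 at 6 h, without overlap. It rose by 2.80 ± 0.10 (6.98-fold, adjusted p = 7.86e-09) in the polysomal and by 1.08 ± 0.10 (2.12-fold, adjusted p = 7.32e-06) in the non-polysomal pool, where quantile normalization ended the call (0.88). Scd1, which introduces the double bond of oleic acid and whose pools had overlapped at rest, had polysomal log2 signals of 11.06, 11.12 and 11.22 at 0 h and 13.70, 13.65 and 13.76 at 6 h. It rose by 2.57 ± 0.08 (5.93-fold, adjusted p = 3.70e-09), and its non-polysomal difference was 0.89 ± 0.08. Fasn, the fatty acid synthase gene, was one of 3 genes called higher in both pools. Its non-polysomal log2 signals were 12.55, 12.65 and 12.51 at 0 h and 14.14, 14.08 and 13.99 at 6 h, a rise of 2.82-fold (log2 SE 0.08, adjusted p = 3.07e-07). In the polysomal pool the rise of 1.03 ± 0.08 stood at the limit, and it was 0.96 without replicate 1 of the 0 h polysomal group, 0.54 when scaled to the 75th percentile and -0.19 after quantile normalization.

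The genes that fell in the polysomal pool did so by less than the strongest rise, and with the dimmer spike-ins Fdft1 (-0.99), Mvk (-0.70) and Acat2 (-0.67) did not reach the limit. Acacb, the gene of the acetyl-CoA carboxylase isoform linked to control of fatty acid oxidation, had polysomal log2 signals of 9.93, 10.17 and 10.05 at 0 h and 8.05, 8.03 and 7.98 at 6 h. It fell by 2.03 (SE 0.09, adjusted p = 4.44e-08) in the polysomal and by 1.73 (SE 0.09, adjusted p = 2.45e-07) in the non-polysomal pool, with no overlap in either. Its second probe, which was well above background on few arrays, gave -0.01 and -0.15, and was called in neither pool. Fdft1 had polysomal log2 signals of 12.41, 12.53 and 12.49 at 0 h and 11.13, 11.01 and 11.10 at 6 h, and it fell by 1.40 (SE 0.07, adjusted p = 8.69e-08) there and by 1.44 in the non-polysomal pool, whereas its second probe gave a polysomal difference of -0.79 that was not called. Mvk, the mevalonate kinase gene directly before Pmvk in the pathway, had polysomal log2 signals of 11.38, 11.57 and 11.43 at 0 h and 10.38, 10.32 and 10.37 at 6 h. It fell by 1.10 (SE 0.08, adjusted p = 8.46e-07), and its second probe gave -0.71. Acat2, the acetoacetyl-CoA thiolase gene at the start of the pathway, fell by 1.07 (SE 0.07).

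In the non-polysomal pool 3 genes rose, Pmvk, Fasn and Elovl5, and 10 fell. A rise was seen in 8.33% of the 36 genes, against 7.5% of all genes and 12.1% of those that were not dim. A fall was seen in 27.8%, against 7.83% of all genes and 12.5% of those that were not dim. The median of the 36 genes was -0.62 (log2), at a distance of -0.66 from the median of all genes and of -0.69, -0.56 and -0.76 within the 3 slides. In this pool 8 of the 36 genes lay above the median of all genes. All 10 genes that fell were also called after quantile normalization and when arrays were scaled to the 75th percentile, but 5 of them came under the limit elsewhere. These were Srebf2 (-0.88), Stard4 (-0.98) and Acss2 (-0.91) with normexp background correction, and Insig1 (-0.97), Acss2 (-0.93) and Acacb (-0.94) with the mean over a gene's probes. The 10 were Fdps, Mvd, Nsdhl, Msmo1, Fdft1, Srebf2, Insig1, Stard4, Acss2 and Acacb, of which 2 belong to the mevalonate pathway, 3 to the sterol branch, 3 to the SREBP system and 2 to fatty acid synthesis.

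Fdps, the farnesyl diphosphate synthase gene, had the largest fall. Its non-polysomal log2 signals were 11.76, 11.73 and 11.70 at 0 h and 9.05, 8.79 and 8.80 at 6 h, and its polysomal ones 13.48, 13.68 and 13.73 at 0 h and 13.03, 13.04 and 13.19 at 6 h. The non-polysomal signal fell by 2.85 (SE 0.10, 7.19-fold, adjusted p = 1.74e-08), and the polysomal difference was -0.54 ± 0.10. Mvd, whose enzyme decarboxylates mevalonate diphosphate, had non-polysomal log2 signals of 10.42, 10.54 and 10.39 at 0 h and 8.27, 8.19 and 8.25 at 6 h. It fell by 2.21 (SE 0.08, 4.63-fold, adjusted p = 2.19e-08), and its polysomal difference was -0.83 ± 0.08. Nsdhl, a dehydrogenase gene of the demethylation of sterols, had non-polysomal log2 signals of 10.01, 10.06 and 10.00 at 0 h and 8.12, 8.29 and 8.20 at 6 h. It fell by 1.82 (SE 0.10, adjusted p = 2.96e-07), and its other probes gave -1.77 and -1.86. In all 3 genes the times were apart in the non-polysomal pool by more than the spread of the replicates.

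**Figure D2:**
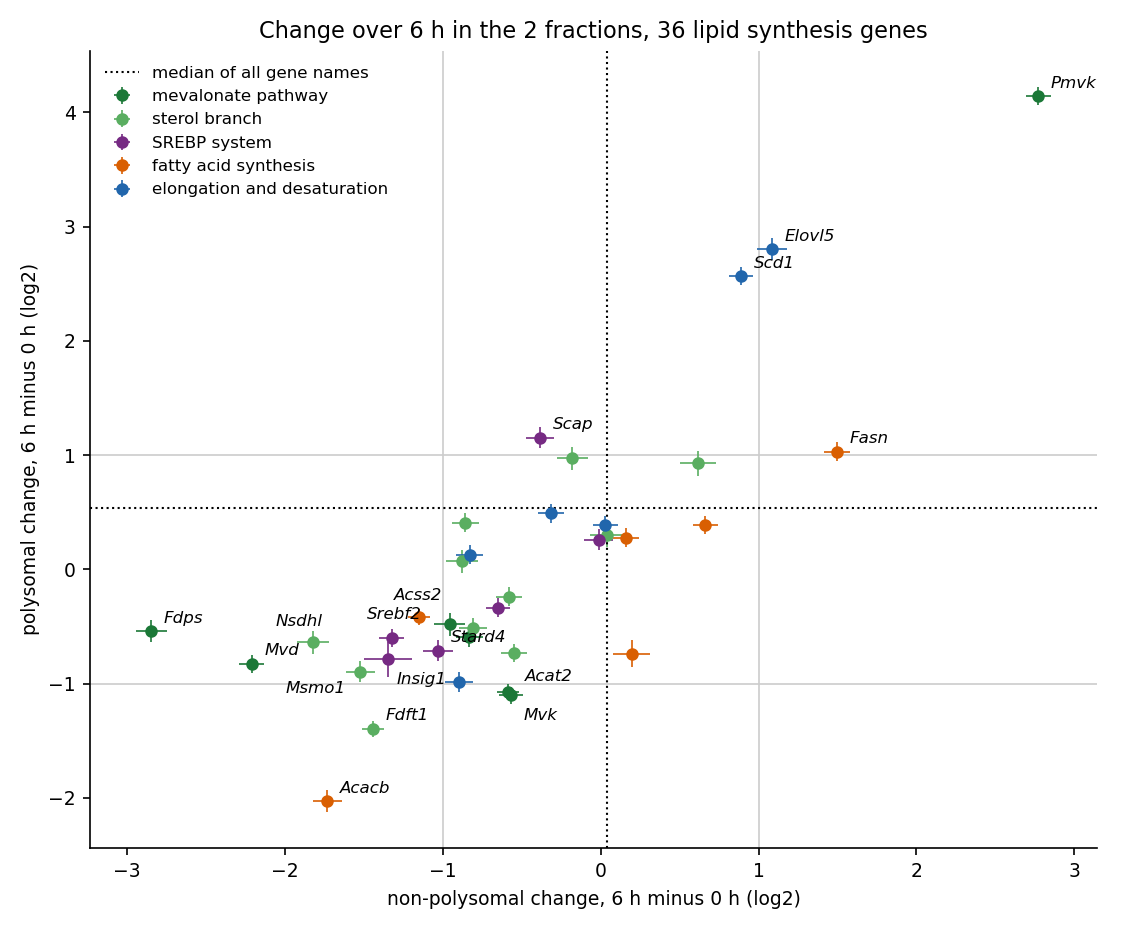
Change from 0 h to 6 h of each of the 36 genes in the non-polysomal (horizontal) and the polysomal pool (vertical), as log2 differences with their limma standard errors as bars, coloured by role; grey lines mark the limits of 1 and -1, dotted lines the medians of all genes, and the genes called in either pool are named. Pmvk stands alone at 2.77 and 4.14, and Fdps lies farthest to the left at -2.85 and -0.54.

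**Figure D3:**
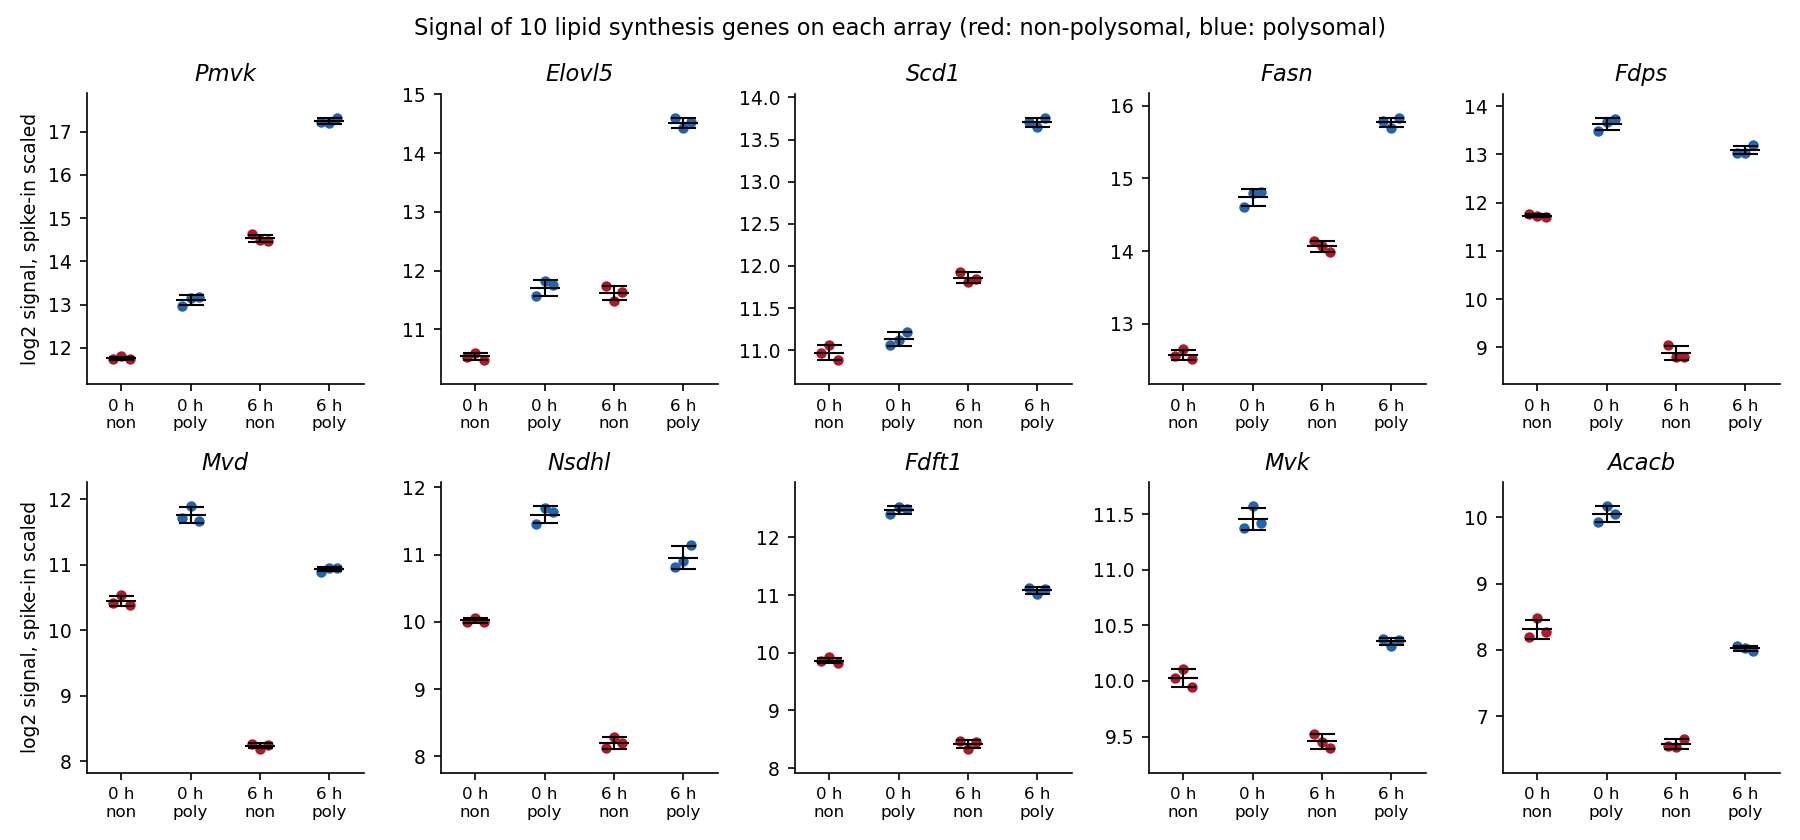
Log2 signal of the 10 genes with the 3 highest and 3 lowest called changes of either pool on each of the 12 arrays, as points with the mean and SD of 3 arrays a group, each panel with its own axis. The 6 h points of Pmvk lie above the 0 h points in both pools, whereas those of Fdps, Mvd and Nsdhl drop in the non-polysomal pool.

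Most steps of the sterol branch changed by less than the limit. By the brightest probe Cyp51, the lanosterol demethylase gene, was nearest to 0 in the non-polysomal pool, at 0.04 ± 0.10. Its polysomal difference was 0.30 ± 0.10. Its other probes went from mean non-polysomal log2 signals of 6.63 and 4.73 at 0 h to 6.06 and 4.14 at 6 h. In the polysomal pool Sc5d was nearest to 0, at 0.07. Sqle, the squalene epoxidase gene, had -0.24 ± 0.08 in the polysomal and -0.58 ± 0.08 in the non-polysomal pool. Of the 11 genes of the branch, 1 fell in the polysomal and 3 in the non-polysomal pool, and 0 rose. By the adjusted p alone 4 were higher and 6 lower in the polysomal, and 1 higher and 8 lower in the non-polysomal pool. The polysomal count of the branch turned on the scaling. It was 5 lower with 75th percentile scaling (Fdft1, Lss, Msmo1, Nsdhl and Dhcr7), 6 lower after quantile normalization and 4 lower with the brighter spike-ins, and with the dimmer ones 2 were higher (Hsd17b7 and Tm7sf2) and 0 lower. Hsd17b7, a ketosteroid reductase gene, was not called by its brighter probe (0.93 polysomal, 0.62 non-polysomal), while its second probe was called higher in both pools, at 1.71 and 1.14. Differing calls between the probes of a gene occurred in at least 1 comparison for 11 of the 19 genes with more than 1 probe. They also concerned Acaca, the other acetyl-CoA carboxylase gene, whose 4 probes gave 1.97, -1.20, 0.66 and 1.18 for the fraction difference at 0 h. For Hmgcs1 and Idi1 the second probe, at -1.01 and -1.11, was called lower in the non-polysomal pool and the brightest, at -0.83 and -0.96, was not. For Acss2, the cytosolic acetyl-CoA synthetase gene, for Srebf2 and for Insig1 it was the reverse, with -1.15 against -0.70, -1.32 against -1.09, and -1.35 against -0.59. The second probes of Hmgcs1 and Srebf2 were near background, with 1 of 3 non-polysomal arrays at 6 h well above it.

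Within the SREBP system Scap alone rose in the polysomal pool and 0 of 6 fell there, while 3 of 6 fell in the non-polysomal pool. The count in the polysomal pool was the same with the dimmer spike-ins and with the authors' log2 values. Insig1 (-1.27), Srebf2 (-1.09) and Stard4 (-1.20) were called lower there with 75th percentile scaling, and the same 3 with the brighter spike-ins. After quantile normalization Srebf1 (-1.15) was called lower as well, and 0 were higher at each of these scalings. These calls rest on the brightest probes. With spike-in scaling the second probe of Insig1 had mean polysomal log2 signals of 7.64 at 0 h and 7.67 at 6 h. The other probes of Stard4 went from 7.67 to 7.60 and from 7.58 to 7.54. The second probe of Srebf2 went from 5.04 to 4.50. Calls of these further probes at other scalings were not tested. Scap had polysomal log2 signals of 14.49, 14.76 and 14.58 at 0 h and 15.69, 15.78 and 15.82 at 6 h, a rise of 1.15 ± 0.09 (2.22-fold, adjusted p = 1.78e-06), but quantile normalization gave -0.067 and 75th percentile scaling 0.67, neither of them called. Its non-polysomal difference was -0.38 ± 0.09. Srebf2, the factor gene known above all for cholesterol synthesis, had non-polysomal log2 signals of 7.65, 7.72 and 7.52 at 0 h and 6.34, 6.31 and 6.28 at 6 h, and fell by 1.32 (SE 0.08, adjusted p = 5.44e-07), with a polysomal difference of -0.60 ± 0.08. Srebf1, the factor gene known above all for fatty acid synthesis, had differences of -0.33 ± 0.08 and -0.65 ± 0.08 in the polysomal and non-polysomal pools and was not called. Insig1 had non-polysomal log2 signals of 8.51, 8.62 and 8.45 at 0 h and 7.23, 7.12 and 7.19 at 6 h, and fell by 1.35 (SE 0.15, adjusted p = 4.46e-05). Its polysomal signals of 8.06, 8.47 and 8.23 at 0 h and 7.19, 7.80 and 7.42 at 6 h did not overlap, but the difference of -0.79 ± 0.15 was under the limit. Insig2 differed by 0.26 ± 0.09 and -0.01 ± 0.09 by its brightest probe. The mean log2 signal of its second probe went down, from 8.37 to 7.88 in the polysomal and from 9.04 to 8.55 in the non-polysomal pool. Stard4 fell by 1.03 (SE 0.09) in the non-polysomal pool, and its other probes were called there too, at -1.31 and -1.46.

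**Figure D4:**
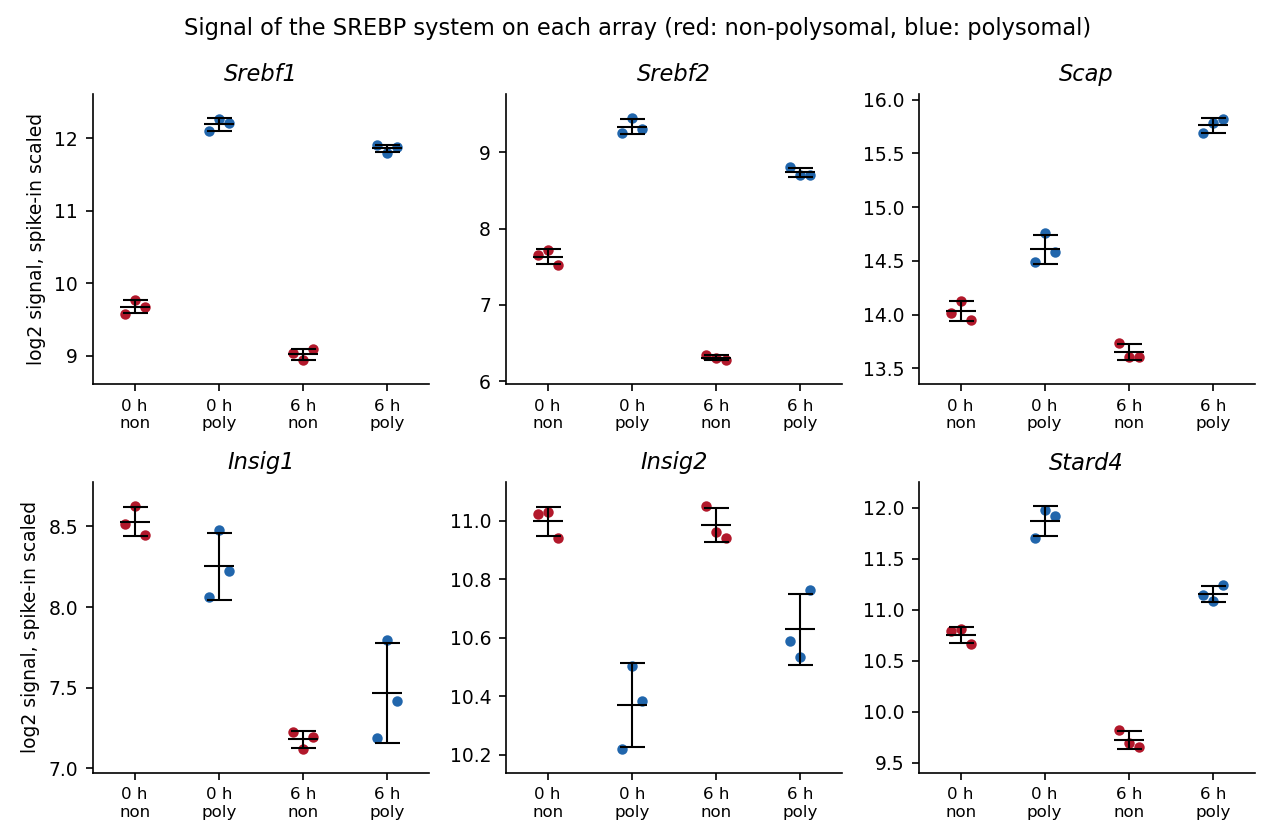
Log2 signal of the 6 genes of the SREBP system on each of the 12 arrays, as points with the mean and SD of 3 arrays a group, each panel with its own axis. Scap at 6 h is high in the polysomal pool only, and Srebf2 and Insig1 have their lowest means in the non-polysomal pool at 6 h.

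The third comparison, the M-value, asked whether the balance between the pools shifted, and is the polysomal minus the non-polysomal change. It uses the same arrays as the comparisons above and is no independent evidence for them. The M-value was called higher for 9 of 36 genes (25%), against 12.3% of all genes and 18.7% of those that were not dim, and lower for 0, against 1.21% of all genes. The median of the 36 genes was 0.35 on the log2 scale, at a distance of -0.15 from the median of all genes, so that as a group they did not stand above it. Within the 3 slides this distance was 0.01, -0.32 and -0.00. With 75th percentile scaling, and likewise with the brighter spike-ins, 4 genes were called higher and 1 lower, with the dimmer spike-ins 16 and 0, and 18 of the 36 genes passed an adjusted p below 0.05 upwards and 4 downwards when the size of the M-value was not limited.

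Fdps had the highest M-value at 2.30 ± 0.14 (limma adjusted p = 3.41e-06), which is a 4.94-fold shift of the balance to the polysomal pool. From the signals given above, its polysomal minus non-polysomal difference went from 1.90 at 0 h to 4.20 at 6 h. Elovl5 followed with 1.72 ± 0.14 (adjusted p = 1.56e-05) and Scd1 with 1.68 ± 0.11 (adjusted p = 4.99e-06). For Fdps the shift lay mostly in the loss of non-polysomal signal, for Elovl5 and Scd1 in the gain of polysomal signal. These were the 3 genes whose M-value was called with all 10 spike-ins, with the dimmer or the brighter ones alone, with 75th percentile scaling and after quantile normalization. Scap (1.54 ± 0.13), Mvd (1.39 ± 0.11) and Pmvk (1.37 ± 0.11) came next, and the smallest M-values called were those of Ebp, the sterol isomerase gene, at 1.27 ± 0.12, Nsdhl at 1.18 ± 0.14 and Tm7sf2 at 1.15 ± 0.14. Ebp combined a polysomal difference of 0.41 with a non-polysomal one of -0.86, neither of them called.

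With all 10 spike-ins fatty acid synthesis showed 0 of 6 M-values past the limit and a median of -0.28. The counts were 3 of 7 in the mevalonate pathway, 3 of 11 in the sterol branch, 1 of 6 in the SREBP system and 2 of 6 in elongation and desaturation. A difference between these groups was not tested, and the count of the sterol branch was 0 with 75th percentile scaling and after quantile normalization. The mevalonate pathway had 1 higher with 75th percentile scaling, and 2 higher and 1 lower after quantile normalization. Fatty acid synthesis had 1 lower (Acaca) with 75th percentile scaling and 2 lower (Acaca and Fasn) after quantile normalization. With the dimmer spike-ins it had 1 higher (Acss2). With all 10 spike-ins the lowest M-values were those of Acaca (-0.93 ± 0.17, limma adjusted p = 0.00187), Mvk (-0.54 ± 0.11), Acat2 (-0.48 ± 0.10) and Fasn (-0.47 ± 0.12). None of them was called at that scaling. The second probe of Acaca gave 1.67. For Stard4 the brightest probe gave 0.32 and the others 1.23 and 1.42, both called.

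**Figure D5:**
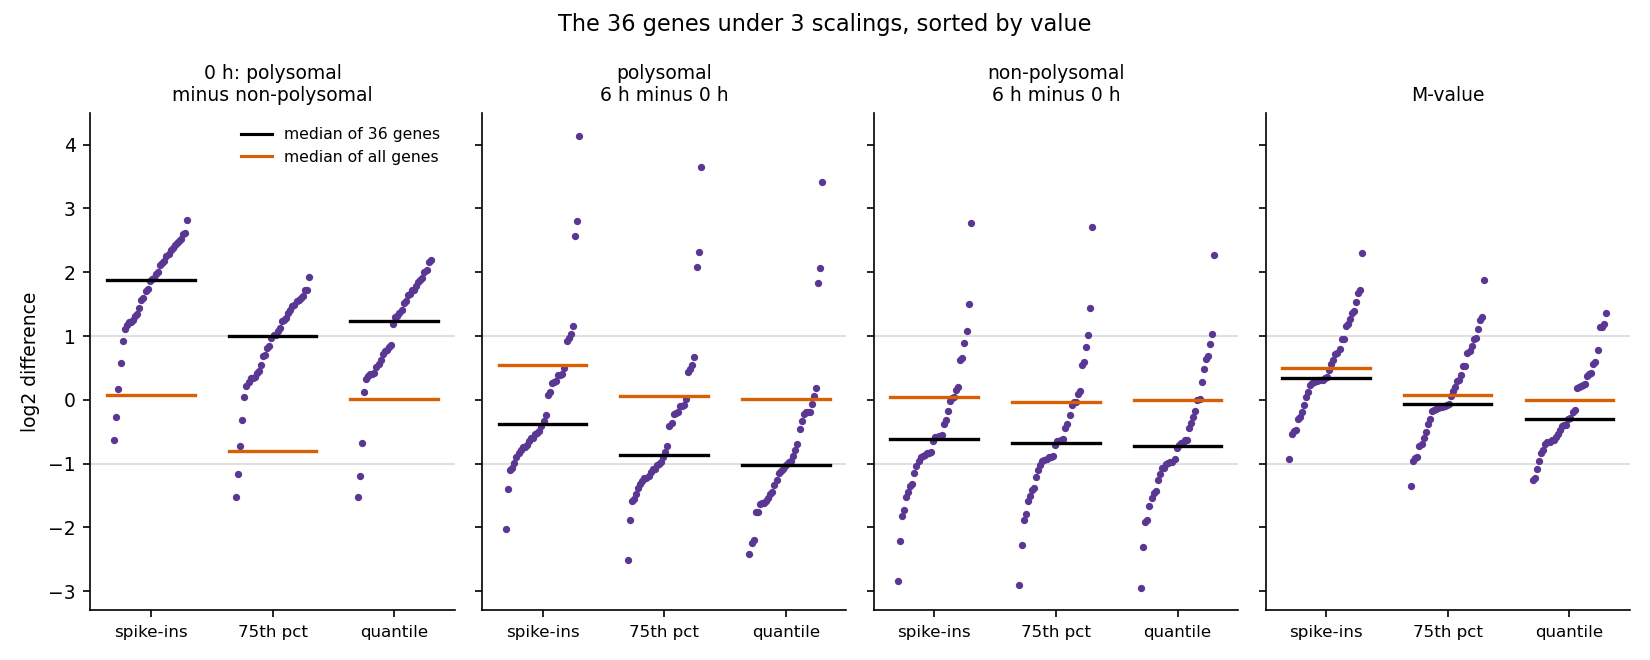
Log2 differences of the 36 genes, sorted by value, in the 4 comparisons under 3 scalings of the arrays (spike-ins, 75th percentile, quantile normalization), with the median of the 36 genes as a black and that of all genes as an orange line. The polysomal change and the fraction difference move with the scaling. In the polysomal change the distance of the 36 genes from all genes is -0.92 with spike-ins and -1.03 after quantile normalization. Scaling to the 75th percentile cannot move this distance.

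The pathways around these genes were followed by a list of 42 further genes with a probe. Their counts and values are given with all 10 spike-ins only, and their counts at other scalings were not tested. Scaling to the 75th percentile shifts all genes of an array alike, and it moved the median polysomal change of all genes from 0.54 to 0.05. The polysomal changes of these genes move with it, so rises near the limit depend on the scaling. With all 10 spike-ins these genes too were mostly higher in the polysomal pool at rest. Of them 31 were higher (73.8%, against 24% of all genes) and 2 lower (4.76% against 10.7%). In the polysomal pool 14 rose over the 6 h (33.3% against 18.5% of all genes) and 4 fell (9.52% against 4.47%). In the non-polysomal pool 5 rose (11.9% against 7.5%) and 4 fell (9.52% against 7.83%), shares near those of all genes. The M-value was called higher for 10 (23.8% against 12.3%) and lower for 0. Of the 42 genes, 37 were well above background on all 12 arrays. Among the genes that were not dim, the shares higher and lower were 40.2% and 16.5% at rest, and 27% and 7.38% in the polysomal change. In the non-polysomal change these shares were 12.1% and 12.5%, and for the M-value 18.7% and 1.97%. Cyp27a1, called higher in the polysomal change and the M-value, was well above background on 0 arrays. The proteins that process SREBP had 4 of 8 genes higher in the polysomal pool and 0 lower, among them the coat protein genes Sec23a (1.13 ± 0.10) and Sec24a (1.29 ± 0.11), whose products carry Scap out of the endoplasmic reticulum. In the isoprenoid branch Nus1 and Dhdds rose in the polysomal pool by 2.50 ± 0.12 and 1.11 ± 0.09. They are the genes of the dehydrodolichyl diphosphate synthase subunits that use farnesyl diphosphate. The second probe of Nus1 went from a polysomal mean of 8.31 to 10.60, and that of Dhdds from 10.33 to 10.93. Of the 11 genes of fatty acid activation and triglyceride synthesis, 4 rose and 1 fell in the polysomal pool. Acsl4, an acyl-CoA synthetase gene, rose by 3.78 ± 0.11 in the polysomal and 3.37 ± 0.11 in the non-polysomal pool, and Dgat2, which completes triglyceride, by 3.02 ± 0.10 and 1.99 ± 0.10. Fatty acid oxidation had 8 of 8 genes higher in the polysomal pool at 0 h with a median of 2.34, and 1 of them, Acadl, fell in both pools, by 1.39 and 1.90.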

How the data were processed

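Non-polysomal and polysomal RNA of 3T3-L1 cells at 0 h and 6 h was measured on 12 one-colour Agilent arrays, grouped as the labels give them. Per the file headers, Feature Extraction 10.7.1.1 wrote intensities per spot, among them a background-subtracted and detrended signal that was not normalized between arrays. The authors also deposited log2 values per probe, which follow the median pixel intensity plus a constant per array. The arrays were designed on build mm9, and no coordinates of that build are used.

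The log2 of the background-subtracted signal was taken, 94 to 221 spots marked as outliers per array were left out, spots of a probe were averaged, and 41174 probes were scaled by 10 spike-in transcripts. A mean for each group was fitted in R 4.3.3 with limma 3.58.1 (lmFit, eBayes), with Benjamini-Hochberg adjustment over all probes. A call needed an adjusted p below 0.05 and a log2 difference above 1 or below -1. Genes were represented by their brightest probe, which sets the level at which noise enters, and levels were not compared between probes. A symbol was found for 64.8% of the probes, and the others kept their accession as name. Intervals are at 95%. The number of arrays, 3 per group, limits the precision, and p-values measure the spread between the biological replicates named in the methods.

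All 36 genes are accounted for. In detail the text gives the 3 highest and 3 lowest called changes of each pool and called M-values, and the SREBP system. Further pathway genes and markers came from lists, and the values of 1 gene of these lists are not reported here. The genes, lists and tests were chosen with earlier results of these data known. The fit was tested on simulated data. Alternatives were 75th percentile scaling, quantile normalization, the authors' log2 values, normexp background correction (offset 50), dim probes left out (probes were kept where all arrays of at least 1 group rated them well above background), outlier spots kept, the replicate number as a block, the mean over a gene's probes, no limit on size, and leaving out each array or replicate number in turn. Scaling by only the dimmer 5 or the brighter 5 spike-ins was added after seeing the data. Normexp used the median pixel signal, since no mean signal column was in the files, in place of the planned mean. Slide and replicate number coincide. Figures were drawn with matplotlib in Python. Measurements by q-PCR and Western blot were not analysed here.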

Additional observations from a re-analysis of the deposited data

How the results depend on the processing

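The 36 genes had 144 calls in the 4 comparisons. The authors' log2 values, keeping outlier spots, leaving out dim probes and the replicate block each left all of them as they were. Leaving out dim probes and the replicate block do not alter the log2 differences of these genes, so they could act only through the adjusted p. Normexp changed 5 calls and the mean over a gene's probes 7. The scaling mattered more. At 0 h, genes higher and lower in the polysomal pool numbered 18 and 2 with 75th percentile scaling and 19 and 2 with quantile normalization, in place of 31 and 0, and in the polysomal change 3 and 16, and 3 and 19, in place of 5 and 4. For the M-value they were 4 and 1, and 4 and 3, in place of 9 and 0. Scaling by the dimmer 5 spike-ins alone gave 7 and 1 in the polysomal change and 16 and 0 for the M-value, and by the brighter 5 it gave 3 and 13, and 4 and 1. With quantile normalization the polysomal changes of Scap (-0.067, adjusted p = 0.333) and Fasn (-0.19, adjusted p = 0.00418) turned negative. Without a limit on size the counts higher and lower were 33 and 1 at 0 h, 14 and 20 in the polysomal change, 6 and 24 in the non-polysomal change and 18 and 4 for the M-value, since smaller differences then count. The distance between the median of the 36 genes and that of all genes at 0 h was 1.23 with quantile normalization and 1.27 without dim probes, in place of 1.80. In the non-polysomal change it was -0.53 with the authors' values and -0.56 with normexp, in place of -0.66, and for the M-value 0.085 with the mean of the probes, in place of -0.15. Where a cause is not given, the cause was not tested.

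Leaving out arrays or replicate numbers (15 settings) changed the call of 9 of the 144 results in at least 1 setting, all by small moves across the limit of 1 or -1. Fasn in the polysomal change dropped to 0.96 without the 0 h array of replicate 1 and to 0.95 without replicate 1, and Stard4 in the non-polysomal change to -0.997 without the 6 h array of replicate 3 and to -0.99 without replicate 2. The other 7 (Me1 at 0 h, Tm7sf2, Hsd17b7 and Elovl6 in the polysomal change, and Sc5d, Fads2 and Acaca in the M-value) came to be called. The count of M-values called lower went from 0 to 1 without replicate 3 or either of its 6 h arrays (range 0 to 1), the gene being Acaca. Pairing was checked by the deviations from the group means. Same-numbered arrays had correlations of -0.10 to 0.42 (median 0.07), and 4 of 18 pairs were above 0.1, so the numbers were not taken as pairs. With the replicate block the counts higher and lower were 31 and 0, 5 and 4, 3 and 10, and 9 and 0. Arrays limit what can be seen to signals over background, which all 36 genes had.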

Other observations

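Of the genes of cholesterol storage and export that the text has not named, Npc2, the gene of the lysosomal cholesterol carrier, rose by 1.85 ± 0.08 (log2, limma adjusted p = 3.61e-08) in the polysomal pool, and Soat1, whose enzyme esterifies cholesterol, by 1.38 ± 0.10 (adjusted p = 7.97e-07). Lipa, the lysosomal acid lipase gene that frees cholesterol from its esters, fell by 1.15 (SE 0.08, adjusted p = 8.93e-07) there. Dhdds had the highest M-value of the 42 further pathway genes, at 2.03 ± 0.12 (adjusted p = 3.41e-06), with a non-polysomal difference of -0.92 ± 0.09. Nus1, whose product forms the same enzyme, had an M-value of 0.36 ± 0.16 and was lower in the polysomal pool at 0 h (-1.59 ± 0.12). In 4 of the 42 genes, Ch25h, Cyp27a1, Gpam and Thrsp, at least 1 group was not well above background on any array.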
